A study of Mus musculus with 12 samples.

Results

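The genes described here carry the adrenergic, natriuretic peptide and cAMP signals of mouse iWAT, the inguinal white adipose tissue, which is a depot of subcutaneous fat. They are 9 genes, picked by their mouse symbols from the 33200 genes of the iWAT count table: Adrb3 (ENSMUSG00000031489, chromosome 8), Adrb1 (ENSMUSG00000035283, chromosome 19), Adra2a (ENSMUSG00000033717, chromosome 19), Npr1 (ENSMUSG00000027931, chromosome 3), Npr3 (ENSMUSG00000022206, chromosome 15), Gnas (ENSMUSG00000027523, chromosome 2), Gnal (ENSMUSG00000024524, chromosome 18), Pde3b (ENSMUSG00000030671, chromosome 7) and Prkar2b (ENSMUSG00000002997, chromosome 12). Levels were measured by poly(A) RNA sequencing in bulk iWAT of mice with a global Nrep knockout (KO) made by CRISPR/Cas editing and of wild-type (WT) C57BL/6 mice. All mice were 16 weeks old, were kept free of specific pathogens and ate a standard maintenance diet. The labels describe 3 KO and 3 WT biological replicates, 1 library each, and the Nrep deletion is the single allele they name. Which part of Nrep was deleted, and whether the KO mice come from 1 founder line, was not stated in the labels. The question is which of these signalling transcripts differ with genotype within iWAT. The 6 liver samples are not analysed here.

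Sympathetic nerves release noradrenaline into fat. The β-adrenergic receptors on adipocytes couple through the stimulatory G protein to adenylyl cyclases, which make cAMP, and cAMP releases the catalytic subunits of protein kinase A (PKA) from their regulatory subunits to start lipolysis. The α2A receptor works through inhibitory G proteins and lowers cAMP, and phosphodiesterases such as PDE3B, which insulin activates, break it down. Natriuretic peptides act beside this route through a receptor that makes cGMP, while a clearance receptor removes the peptides.

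Library totals lay between 17970451 and 20369345 estimated counts, so that 1 count corresponded to 0.0466 to 0.0574 CPM, the unit in which a gene's counts are scaled to a common library size. Nrep, the targeted gene, had 2, 2 and 5 counts in the KO libraries and 1404, 1640 and 1300 in the WT libraries, a log2 difference of -8.72 (standard error 0.268, edgeR adjusted p = 1.82e-05). The summed level of 12 mature adipocyte markers was 25166 to 44619 CPM in KO and 18385 to 24632 CPM in WT, which fits the labelled tissue. All 12 of those markers had positive log2 fold changes, and Slc2a4 was the 1 that passed the test. KO libraries also held skeletal muscle transcripts: 10 markers summed to 3974, 660 and 3678 CPM in KO replicates 1, 2 and 3, against 9.38 to 16.0 CPM in WT. Whether RNA from muscle adds to the level of any adipocyte marker, Slc2a4 included, was not tested. Macrophage markers summed to 1637 to 2034 CPM in KO and 2424 to 3510 CPM in WT, and all 7 had negative log2 fold changes. B and T lymphocyte markers summed to 313 to 1239 CPM in KO, highest in KO replicate 2, and to 1023 to 1073 CPM in WT. Schwann cell markers summed to 625 to 699 CPM in KO and 429 to 491 CPM in WT, endothelial markers to 1130 to 1363 CPM in KO and 937 to 1003 CPM in WT, and mural markers to 794 to 841 CPM in KO and 732 to 778 CPM in WT. Brown or beige adipocyte markers summed to 183 to 391 CPM in KO and 63.0 to 194 CPM in WT. All 5 had positive log2 fold changes and 0 passed the test. Adipocyte progenitor markers summed to 2344 to 4183 CPM in KO and 3558 to 4223 CPM in WT. Epithelial markers summed to 2.33 to 5.05 CPM in KO and 3.14 to 7.21 CPM in WT. The groups overlapped in these sums. They did not overlap in the sums of the mature adipocyte, muscle, macrophage, Schwann cell, endothelial and mural markers. The part of all these cell types in the differences below was not tested. In bulk tissue, fewer cells of a type and less RNA per cell cannot be told apart. Of 7 sympathetic neuron markers, Snap25 and Elavl4 had 0 to 6 counts per library. Ddc and Slc6a2, the only tested members of that list, together made up 0.803 to 1.43 CPM in KO and 2.01 to 2.18 CPM in WT. The groups did not overlap in that sum but did in each gene alone. Neither gene passed the edgeR test (adjusted p = 0.424 for Ddc and 0.298 for Slc6a2). The others of that list are not analysed here.

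All 9 signalling genes passed the filter on low counts, and 1 of them, Gnal, passed the quasi-likelihood test of edgeR at an adjusted p of 0.05. Of 16656 tested genes, 171 or 1.03% passed it, 144 (0.865%) with KO higher and 27 (0.162%) with KO lower. Scaling by library totals alone split the calls over all genes into 129 higher and 49 lower and shifted the median over all genes by -0.134 on the log2 scale. Of the 9 genes, 7 had positive and 2 had negative log2 fold changes, with a median of 0.36, against -0.06 over all tested genes. Of all tested genes, 7364 had positive and 9292 had negative values. KO lay above WT without overlap for Gnas and Prkar2b, and below it for Gnal and Adra2a. Among all tested genes, 15.2% lay above and 13.1% below in this way, 28.3% in either, so 2 of 9 in each direction is not far from that background. An unadjusted p under 0.05 was reached by 5 of the 9 genes, against 22.6% of all tested genes. DESeq2, which called 10.9% of all tested genes, called Prkar2b higher and Gnal lower, and limma-voom, which called 0.0961%, called 0 of them. Single libraries weighed on the counts. Without KO replicate 2, 5 of the 9 genes passed (4 higher, 1 lower), in a comparison where 4221 or 25.3% of all tested genes then passed. When any other library was left out, 0 of the 9 genes passed. Over all tested genes, 1 then passed without KO replicate 1, 3 without KO replicate 3, 1 without WT replicate 1, 1 without WT replicate 2 and 334 without WT replicate 3. In log2 CPM over all tested genes, KO replicate 2 correlated at 0.970, 0.965 and 0.974 with WT replicates 1, 2 and 3. With KO replicates 1 and 3 it correlated at 0.973 and 0.955, so it was closer to every WT library than to KO replicate 3.

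**Figure D1:**
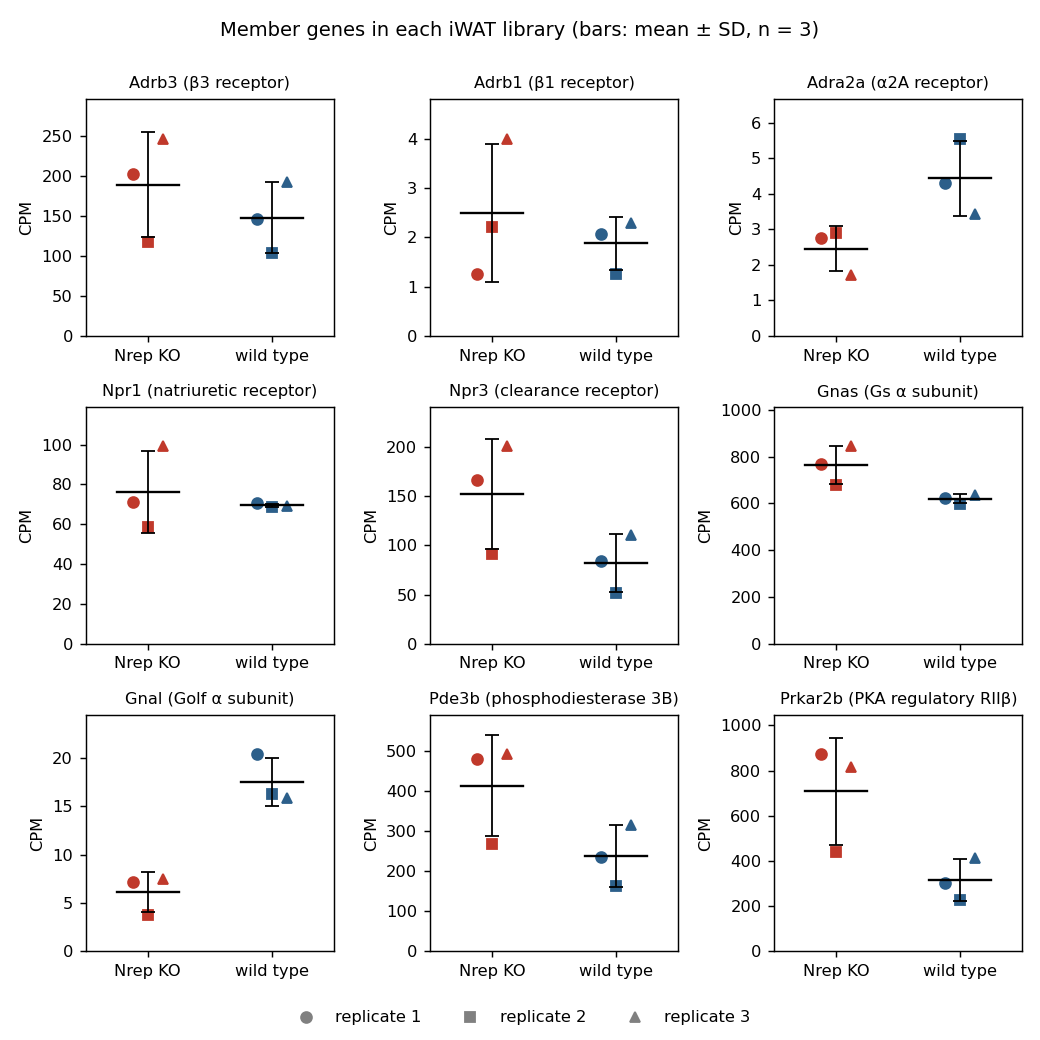
Level of each of the 9 signalling genes in CPM (linear axes starting at 0) in the 3 KO libraries, left in each panel, and the 3 WT libraries, right, with symbols for the replicate number and bars for mean ± SD. Gnal and Adra2a sit lower in all KO libraries, Gnas and Prkar2b sit higher, and the other 5 genes overlap.

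Of the 3 adrenergic receptors among the 9 genes, Adrb3 was by far the most abundant per transcript length, and none of the 3 passed the test. Adrb3 encodes the β3-adrenergic receptor, the main lipolytic catecholamine receptor of rodent fat. It had 203.0, 117.6 and 246.6 CPM in KO replicates 1, 2 and 3 and 146.5, 104.3 and 192.6 CPM in WT replicates 1, 2 and 3. The groups overlapped, with replicate 2 the lowest and replicate 3 the highest library of each group. The means were 189 ± 65.6 CPM in KO and 148 ± 44.2 CPM in WT (SD, n = 3 each), giving a log2 fold change of 0.36 (standard error 0.311, adjusted p = 0.507). Adrb1, the β1 receptor, had 1.26, 2.22 and 4.0 CPM in KO and 2.07, 1.26 and 2.29 CPM in WT, from 22 to 72 counts per library. Its groups overlapped widely, and the log2 fold change of 0.41 (standard error 0.447, adjusted p = 0.592) turned to -0.10 without KO replicate 3.

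Adra2a, the α2A receptor that opposes lipolysis, was lower in every KO library than in any WT library but did not pass the test. It had 2.75, 2.91 and 1.72 CPM in KO and 4.31, 5.55 and 3.44 CPM in WT, from 31 to 119 counts per library. The mean of 2.46 ± 0.644 CPM in KO compared with 4.43 ± 1.06 CPM in WT (SD, n = 3 each), giving a log2 fold change of -0.85 (standard error 0.300, unadjusted p = 0.0228, adjusted p = 0.153). KO replicate 3, with the highest Adrb3, had the lowest Adra2a, and replicate 2 of each group had the reverse. The ratio of Adrb3 to Adra2a within a library, in CPM and not corrected for transcript length, was 73.8, 40.5 and 143 in KO and 34.0, 18.8 and 56.0 in WT. These ratios overlapped between the groups, since KO replicate 2 lay below WT replicate 3, and their mean log2 difference was 1.19.

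Npr1 and Npr3, the signalling and the clearance receptor for natriuretic peptides, had different patterns. Npr1 encodes the receptor guanylyl cyclase that makes cGMP when atrial or B-type natriuretic peptide binds. It had 71.1, 58.8 and 99.1 CPM in KO and 70.4, 68.7 and 69.2 CPM in WT. The WT libraries were almost level, and the KO libraries spread to both sides of them. The log2 fold change was 0.14 (standard error 0.187, adjusted p = 0.675), and its sign was not stable, being -0.01 when libraries were scaled by their totals alone and -0.10 without KO replicate 3.

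Npr3 encodes the clearance receptor, which binds natriuretic peptides, takes them up and has no guanylyl cyclase. It had 166, 91.0 and 200.8 CPM in KO and 84.1, 51.3 and 110.8 CPM in WT. Replicates 1 and 3 of KO stood above all WT libraries, while KO replicate 2 lay between WT replicates 1 and 3. The means were 153 ± 56.1 CPM in KO and 82.1 ± 29.8 CPM in WT (SD, n = 3 each), giving a log2 fold change of 0.89 (standard error 0.352, unadjusted p = 0.0359, adjusted p = 0.188). Without KO replicate 2, where 25.3% of all tested genes passed, it was 1.22 with an adjusted p = 0.0229. Leaving out any other library gave an adjusted p between 0.143 and 0.436. The ratio of Npr1 to Npr3 within a library, in CPM and not corrected for transcript length, was 0.428, 0.646 and 0.493 in KO and 0.837, 1.34 and 0.625 in WT. The ratios of the groups overlapped narrowly, KO replicate 2 lying above WT replicate 3, and per transcript length Npr3 was above Npr1 in all 6 libraries. The mean log2 difference of the ratio was -0.79. In GENCODE M21, exons of Npr3, Npr1 and Adrb3 overlap non-coding genes on the opposite strand: Gm5144 with 62 counts over the KO libraries and 39 over the WT libraries, Gm16048 with 1 and 0, and Gm45470 with 189 and 89. These are small beside the counts of the receptors themselves.

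The proximal promoter of Npr3 is shown because cAMP acts on transcription through the cAMP response element (CRE), whose core half-site is TGACG, and Npr3 was the natriuretic receptor with the larger difference. The 250 bases before the RefSeq start on the minus strand, at chr15:11907372-11907621 of GRCm38.p6, are printed 5′ to 3′ with the half-site in capitals. It starts 50 bases before the start.
Npr3: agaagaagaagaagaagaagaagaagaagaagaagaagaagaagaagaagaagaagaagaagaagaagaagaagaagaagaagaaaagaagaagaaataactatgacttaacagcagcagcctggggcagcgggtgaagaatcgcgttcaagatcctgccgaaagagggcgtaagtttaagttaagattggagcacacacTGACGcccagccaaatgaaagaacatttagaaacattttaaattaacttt
Both strands were searched. The half-site was present in 17.8% of 32851 RefSeq promoters of that length and in 6 of the 10 windows matched to the genes described here. Counted by gene, 4 of the 6 genes with a matched window held it. The background was not matched for GC content, which was 38.8% in the Npr3 window and reached 80.0% in a Gnas window. Of the 10 windows 4 belong to Gnas, and since some of them overlap, the 6 windows with the half-site hold 5 distinct sites. A match is a description of the letters and not a binding site. The motifs were chosen after the sequences had been seen. Adrb3, Pde3b and Gnal had no window matched.

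Gnal was the 1 gene of the 9 that passed the test, with KO lower, and Gnas, its close relative, was far more abundant per transcript length. Gnal encodes Gα-olf, a stimulatory α subunit best known from olfactory neurons and the striatum, where it couples receptors to adenylyl cyclase. It had 7.17, 3.79 and 7.45 CPM in KO and 20.4, 16.3 and 15.9 CPM in WT, from 77 to 134 counts in KO and 332 to 384 counts in WT. Every KO library was below every WT library by a wide margin, and KO replicate 2 was the lowest. The means were 6.14 ± 2.03 CPM in KO and 17.5 ± 2.53 CPM in WT (SD, n = 3 each), so Gnal fell by 1.52 on the log2 scale (standard error 0.266), to 0.350 of the WT level. The adjusted p was 0.0494, close to the threshold, and over 14 alternative settings the log2 fold change stayed between -1.68 and -1.20 while 6 of them kept the adjusted p below 0.05. Leaving out any 1 library other than KO replicate 2 took the adjusted p above 0.05.

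Gnal lies on chromosome 18, as does Nrep, and whether this bears on the Gnal level was not tested. In the GENCODE M21 annotation the exons of Gnal overlap those of Mppe1 on the opposite strand. The library kit was stranded, but whether the counting used strand is not given, so reads of the pair may have been mixed and the Gnal level is uncertain to that extent. Mppe1 itself had 1202 counts summed over the KO libraries and 1622 over the WT libraries, a log2 difference of -0.32 (adjusted p = 0.457), with overlapping groups. The 3 named genes whose centred log2 CPM over the 6 libraries lay closest to that of Gnal, among 12548 other genes with a mean of at least 2 CPM, were Ror2, Mup15 and Errfi1, with root mean square differences of 0.143, 0.161 and 0.196. Ror2 is a receptor tyrosine kinase-like receptor for Wnt5a, Mup15 belongs to the major urinary proteins, a family of near-identical copies whose counts are uncertain, and Errfi1 encodes a feedback inhibitor of the EGF receptor. Errfi1 passed the test (82.4 ± 24.2 CPM in KO and 228 ± 4.61 CPM in WT, SD, n = 3 each, log2 fold change -1.47, adjusted p = 0.0390), whereas Ror2 (adjusted p = 0.0800) and Mup15 (adjusted p = 0.0630) did not.

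Gnas encodes Gαs, the stimulatory α subunit that couples β-adrenergic receptors to adenylyl cyclase. It had 768, 679.8 and 844.5 CPM in KO and 624, 599.6 and 637.7 CPM in WT. All KO libraries lay above all WT libraries, but by less than in Gnal, and the WT libraries were tightly grouped. The means were 764 ± 82.4 CPM in KO and 621 ± 19.3 CPM in WT (SD, n = 3 each), giving a log2 fold change of 0.30 (standard error 0.155, adjusted p = 0.285). Without KO replicate 2, where 25.3% of all tested genes passed, it was 0.44 with an adjusted p = 0.0384. In the fits without any other library the adjusted p lay between 0.351 and 0.571. Gnas is an imprinted locus with several starts, and the table sums them into 1 value, while the antisense transcript Nespas had 10 counts over the KO libraries and 15 over the WT libraries. The log2 ratio of Gnal to Gnas was -6.74, -7.49 and -6.83 in KO and -4.93, -5.20 and -5.33 in WT, without overlap. Relative to Gnas, Gnal was therefore 3.64 times less abundant in KO than in WT, a quantity that does not depend on the scaling between libraries.

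The phosphodiesterase and the PKA subunit were both on the higher side in KO, and neither passed the test. Pde3b encodes phosphodiesterase 3B, which degrades cAMP in adipocytes and mediates the antilipolytic action of insulin. It had 480.0, 267 and 491.6 CPM in KO and 235, 162.5 and 314.7 CPM in WT. KO replicates 1 and 3 stood above all WT libraries, and KO replicate 2 lay below WT replicate 3. The means were 413 ± 126 CPM in KO and 238 ± 76.1 CPM in WT (SD, n = 3 each), giving a log2 fold change of 0.80 (standard error 0.308, unadjusted p = 0.0332, adjusted p = 0.182). Without KO replicate 2, where 25.3% of all tested genes passed, it was 1.09 with an adjusted p = 0.0188. When any other library was left out, the adjusted p was between 0.129 and 0.439.

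Prkar2b encodes RIIβ, the regulatory PKA subunit that predominates in adipocytes, where it holds the catalytic subunits inactive until cAMP binds. It had 873, 438 and 817 CPM in KO and 303, 229 and 415 CPM in WT. The groups did not overlap, although KO replicate 2 was only just above WT replicate 3. The means were 709 ± 237 CPM in KO and 316 ± 93.3 CPM in WT (SD, n = 3 each), a 2.25-fold difference (log2 fold change 1.17, standard error 0.315, unadjusted p = 0.00622, adjusted p = 0.0900). This was the largest positive fold change of the 9 genes. It passed in DESeq2, with an adjusted p = 0.00295, and without KO replicate 2, with an adjusted p = 0.00650, where 25.3% of all tested genes passed. It did not pass in limma-voom (adjusted p = 0.103) or when any other library was left out (edgeR adjusted p between 0.0836 and 0.305).

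The Prkar2b promoter is shown because this gene had the largest positive fold change. The 250 bases before the RefSeq start of its first listed window, at chr12:32061278-32061527 of GRCm38.p6 on the minus strand, are printed 5′ to 3′. Capitals mark an E-box, CACGTG, a palindrome that reads the same on both strands and starts 80 bases before the start.
Prkar2b: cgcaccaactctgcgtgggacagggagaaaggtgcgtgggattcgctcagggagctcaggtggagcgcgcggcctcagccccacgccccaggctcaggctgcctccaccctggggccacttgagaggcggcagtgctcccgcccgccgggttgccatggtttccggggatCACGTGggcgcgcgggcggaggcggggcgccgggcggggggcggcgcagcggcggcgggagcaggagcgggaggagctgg
Of these bases, 19 are annotated as exon in GENCODE M21. The E-box was present in 6.0% of the 32851 promoters and in 2 of the 10 matched windows, and no TGACG was found in this one.

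**Figure D2:**
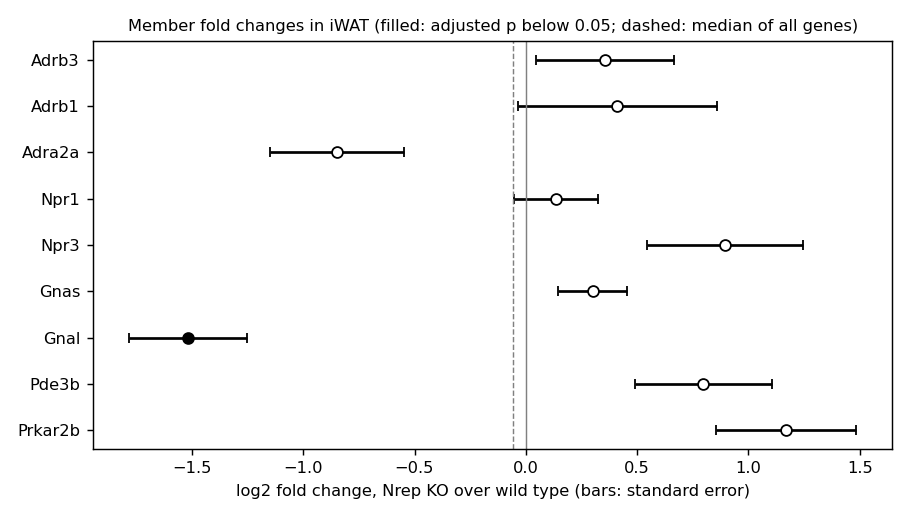
Log2 fold change, KO over WT, of the 9 signalling genes with standard errors from edgeR. The dashed line is the median of all tested genes, -0.06, and the filled point marks Gnal, the gene with an adjusted p below 0.05.

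Compared per length, the order of the genes was the same in both groups for the 7 most abundant. Levels per length are CPM per kilobase of the median coding transcript, in which Gnas stood at 255 ± 27.6 in KO and 207 ± 6.45 in WT (SD, n = 3 each). Prkar2b followed with 226 ± 75.6 in KO and 101 ± 29.8 in WT, and Adrb3 with 101 ± 35.2 in KO and 79.3 ± 23.7 in WT. Pde3b and Npr3, next in order, could not be separated, at 62.8 ± 19.2 and 62.6 ± 23.0 in KO, against 36.1 ± 11.6 and 33.7 ± 12.2 in WT. On the same CPM per kilobase scale Npr1 stood at 18.8 ± 5.08 in KO and 17.1 ± 0.216 in WT, and Gnal at 2.71 ± 0.898 in KO and 7.74 ± 1.12 in WT. The least abundant pair changed places: Adrb1 at 0.845 ± 0.471 in KO and 0.635 ± 0.185 in WT, and Adra2a at 0.584 ± 0.153 in KO and 1.05 ± 0.252 in WT. Neighbours with overlapping libraries were Gnas and Prkar2b, Adrb3 and Pde3b, and Adrb1 and Adra2a in KO, and Prkar2b and Adrb3 in WT. Pde3b and Npr3 overlapped in both groups.

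Much of the order of libraries was shared between the genes. Replicate 2 was the lowest library for Adrb3, Npr3, Gnas and Pde3b in both groups, as it was for Npr1 and Prkar2b, and also for Gnal in KO and Adrb1 in WT. Adra2a was highest in replicate 2 of each group. Over the 6 libraries the centred log2 CPM of Npr3 and Pde3b lay closest, with a root mean square difference of 0.112, followed by Npr1 and Gnas at 0.166 and Pde3b and Prkar2b at 0.186. Gnal and Prkar2b lay farthest apart, at 1.39. The mean log2 CPM of the 12 mature adipocyte markers had the same low replicate 2, at 10.49, 9.93 and 10.78 in KO and 9.60, 9.49 and 9.77 in WT, a difference of 0.78 without overlap. Whether RNA from muscle in the KO libraries adds to this marker level was not tested.

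Set against that marker level, the 9 genes split into those that overlapped between the groups and those that did not, given as a description with no test. Pde3b, Npr3 and Prkar2b kept close to the adipocyte markers, with differences between KO and WT in log2 CPM minus marker level of 0.02, 0.11 and 0.37, and their groups overlapped. This scale lowers KO relative to WT for every gene alike, by the 0.78 above, and the median difference over 16538 genes with counts in every library was -0.85. Adrb1 overlapped as well, at -0.48. The other 5 genes lay lower in every KO library than in any WT library on this scale, with differences of -0.45 for Adrb3, -0.48 for Gnas, -0.68 for Npr1, -1.64 for Adra2a and -2.35 for Gnal. Of all tested genes, 57.1% lay lower without overlap in this way and 1.68% lay higher, so 5 of 9 is near the background. The differences of Adra2a and Gnal were below the median of all genes, while those of Adrb3, Gnas and Npr1 were above it. For Gnal the values were -7.65, -8.01 and -7.88 in KO and -5.25, -5.47 and -5.78 in WT, so the gap between the groups was several times the spread within either.

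**Figure D3:**
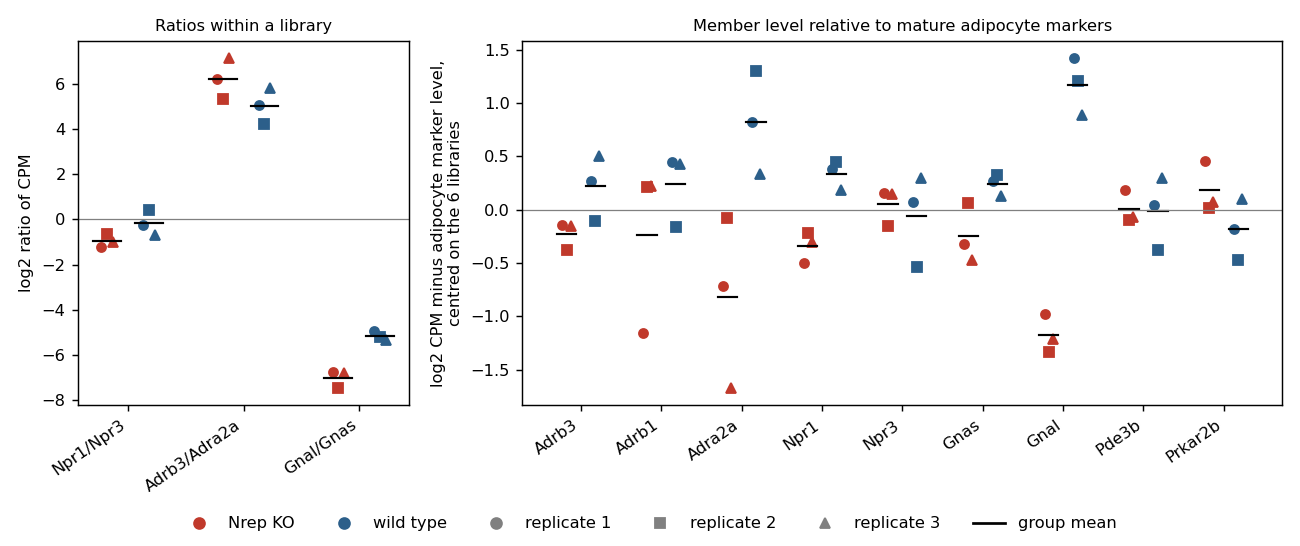
Left, log2 ratios of CPM between pairs of genes in each library. Right, log2 CPM of each gene minus the mean log2 CPM of 12 mature adipocyte markers, centred on the 6 libraries. KO libraries stand left of WT libraries, symbols give the replicate number and black lines the group means. The Gnal to Gnas ratio and the relative level of Gnal separate the groups most clearly.

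The wider pathway was read from 11 lists holding 135 genes, of which 125 were tested. Of these 125 genes, the 9 above included, 2 passed the test with KO higher and 1 with KO lower, which is 2.4% against 1.03% of all tested genes. KO lay above WT without overlap for 17.6% of them and below for 16%, against 15.2% and 13.1%. Positive and negative log2 fold changes were evenly split, at 63 and 62, against 7364 and 9292 over all tested genes. DESeq2 called 17 higher and 4 lower, or 16.8%, against 10.9% of all tested genes, and limma-voom called 0. An unadjusted p under 0.05 was reached by 40, or 32.0%, against 22.6% of all tested genes. These shares are the background for the counts per list below. The 2 genes that passed with KO higher were Adcy10 and Ptger3, and the 1 that passed with KO lower was Gnal.

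Adcy10 encodes the soluble, bicarbonate-stimulated adenylyl cyclase, which G proteins do not regulate. It had 4.13, 2.96 and 3.06 CPM in KO and 0.479, 0.840 and 0.430 CPM in WT, from 55 to 72 counts in KO and 9 to 18 counts in WT. Every KO library was well above every WT library. The means were 3.38 ± 0.651 CPM in KO and 0.583 ± 0.224 CPM in WT (SD, n = 3 each), a 5.72-fold difference (log2 fold change 2.52, standard error 0.351, adjusted p = 0.0370). The other 8 tested cyclases did not pass in edgeR, and DESeq2 called 2 of the 9 higher.

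Ptger3 encodes the EP3 receptor for prostaglandin E2, which couples to inhibitory G proteins and is antilipolytic in adipocytes. It had 31.8, 23.8 and 32.7 CPM in KO and 13.4, 15.3 and 13.2 CPM in WT. The KO libraries were all higher, and the WT libraries lay within a narrow band. The means were 29.4 ± 4.89 CPM in KO and 13.9 ± 1.15 CPM in WT (SD, n = 3 each), a 2.11-fold difference (log2 fold change 1.08, standard error 0.158, adjusted p = 0.0400). Among the 6 fits that each leave out 1 library, Ptger3 passed in 1, without KO replicate 2, and Adcy10 in 2, without KO replicate 2 or WT replicate 3.

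The list holding Ptger3, the other receptors coupled to cAMP, had 16 tested genes, a median log2 fold change of 0.45 and 11 positive values. Of all 16656 tested genes, 7364 were positive. KO lay above WT without overlap for 37.5% of the list. Named after their values were seen, Adora1, the antilipolytic adenosine A1 receptor, had a log2 fold change of 0.95 (adjusted p = 0.0650), and Mc2r, the receptor for adrenocorticotropic hormone, had 1.12 (adjusted p = 0.0578). DESeq2 called 7 of the 16 higher. Among the other adrenergic receptors Adra1a, an α1 receptor coupled to Gq, had 10.8 ± 2.80 CPM in KO and 5.95 ± 1.69 CPM in WT (SD, n = 3 each, adjusted p = 0.129). None of the 7 tested adrenergic receptors passed in edgeR, 3 had an unadjusted p under 0.05, DESeq2 called 1 higher and limma-voom called 0.

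In the natriuretic peptide and cGMP list, 0 of 8 tested genes passed in edgeR, 2 had an unadjusted p under 0.05, DESeq2 called 1 higher and limma-voom called 0. Npr2, the receptor for C-type natriuretic peptide, had 58.1 ± 15.7 CPM in KO and 34.6 ± 6.00 CPM in WT (SD, n = 3 each, log2 fold change 0.75, adjusted p = 0.101), without overlap. Gucy1a1, a subunit of the nitric oxide-sensitive guanylyl cyclase, had 30.8 ± 3.89 CPM in KO and 28.1 ± 2.27 CPM in WT. Of 15 G protein α subunits and chaperones, Gnal alone passed in edgeR, and the list median was -0.03. In this list 6 had an unadjusted p under 0.05, DESeq2 called 2 higher and 1 lower, and limma-voom called 0. The inhibitory subunits Gnai2, with 420 ± 56.0 CPM in KO and 497 ± 63.8 CPM in WT, and Gnai1, with 162 ± 51.0 CPM in KO and 129 ± 9.06 CPM in WT, had overlapping groups.

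Of 18 tested phosphodiesterases, 0 passed in edgeR, 3 had an unadjusted p under 0.05, and DESeq2 and limma-voom called 0. Pde2a, which cGMP stimulates, had 143 ± 27.6 CPM in KO and 111 ± 8.33 CPM in WT, and the cAMP-specific Pde7a had 47.0 ± 14.1 CPM in KO and 60.9 ± 4.72 CPM in WT (SD, n = 3 each). Of 9 PKA subunits and inhibitors 0 passed in edgeR, 3 had an unadjusted p under 0.05, DESeq2 called 2 higher and limma-voom called 0. Prkaca, the catalytic α subunit, had 202 ± 33.0 CPM in KO and 123 ± 5.90 CPM in WT (SD, n = 3 each, log2 fold change 0.72, adjusted p = 0.0625), without overlap. Prkar1a, the RIα regulatory subunit, had 354 ± 3.33 CPM in KO and 378 ± 23.7 CPM in WT, a log2 fold change of -0.09, with overlapping groups.

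Downstream and regulatory lists gave 0 calls in edgeR, and values below are mean ± SD with n = 3 each. Of all 16656 tested genes, 9292 had negative log2 fold changes, the background for the sign counts here. Of 11 A-kinase anchoring proteins, which tether PKA, 1 had an unadjusted p under 0.05 and DESeq2 called 1 higher, and Akap2 had 193 ± 38.5 CPM in KO and 148 ± 14.0 CPM in WT while Akap13 had 209 ± 56.3 CPM in KO and 256 ± 4.24 CPM in WT. In the list of receptor desensitisation and Epac, 8 of 10 log2 fold changes were negative, 4 had an unadjusted p under 0.05, and DESeq2 called 0. Its Grk2, the kinase that phosphorylates active β receptors, had 172 ± 62.1 CPM in KO and 248 ± 24.5 CPM in WT, and Arrb1, the β-arrestin that binds them next, had 116 ± 13.4 CPM in KO and 153 ± 16.5 CPM in WT. Of CREB, its coactivators and the SIK kinases, 10 of 11 log2 fold changes were negative, 2 had an unadjusted p under 0.05 and DESeq2 called 1 lower. Sik2, the exception, had 266 ± 72.4 CPM in KO and 197 ± 19.8 CPM in WT, and the coactivator Ep300 had 96.8 ± 15.4 CPM in KO and 117 ± 2.43 CPM in WT. Limma-voom called 0 in each of these lists.

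The 11 genes known to be induced by cAMP did not move one way: 5 log2 fold changes were positive and 6 negative, and 0 passed in edgeR or limma-voom. DESeq2 called 1 higher and 2 lower, and 4 had an unadjusted p under 0.05. Pck1, which makes glycerol phosphate precursors in fat, had 3527 ± 1132 CPM in KO and 2322 ± 486 CPM in WT, and the clock gene Per1 had 102 ± 19.0 CPM in KO and 88.5 ± 5.86 CPM in WT (SD, n = 3 each). The extremes of the list, named after their values were seen, were Dio2 and Fos. Dio2, the deiodinase that activates thyroid hormone in brown fat, had 13.8, 5.17 and 19.1 CPM in KO and 2.34, 1.03 and 1.62 CPM in WT (log2 fold change 2.93, adjusted p = 0.0514). Fos, an immediate early gene, had 5.45, 7.04 and 7.50 CPM in KO and 120, 29.1 and 21.4 CPM in WT (log2 fold change -3.09, adjusted p = 0.0630). Both separated the groups, in opposite directions.

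**Figure D4:**
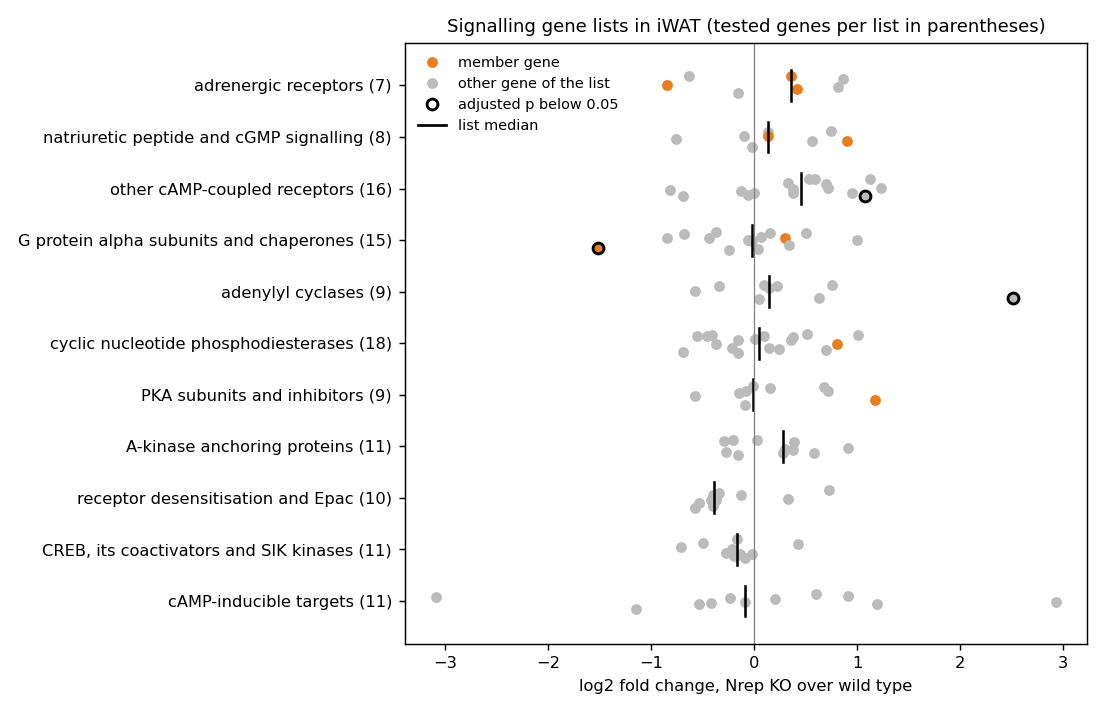
Log2 fold change, KO over WT, of each tested gene in 11 signalling lists, with the 9 genes described here in orange and list medians as vertical lines. Rings mark Gnal, Adcy10 and Ptger3, the genes with an adjusted p below 0.05, and list medians run between -0.39 and 0.45.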

How the data were processed

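Poly(A) RNA of iWAT was sequenced with a stranded kit, per the labels' protocols. The deposited table holds estimated counts per gene and library, 9.53% to 11.1% of them not whole, unscaled and unpooled. Its quantifier is not given in the sources used, and the submitters' processing notes name fastp, featureCounts, GRCm38 and GRCm39 without roles. How reads of near-identical or overlapping genes were assigned is not given either.

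Counts were rounded and tested, KO against WT, with edgeR 4.0.16 in R 4.3.3: TMM scaling, filterByExpr on genotype, robust quasi-likelihood F-test, Benjamini-Hochberg adjustment over 16656 genes, two-sided, at 0.05. The standard error is the log2 fold change divided by the square root of F. CPM are counts scaled to TMM library sizes and were computed here. GENCODE M21 gave transcript lengths and overlaps, and RefSeq the promoters. A reference of gene names, matched by Ensembl identifier, gave symbols for 26372 of 33200 identifiers (79.4%). The unnamed rest, with 0.98% to 1.39% of all counts, was tested as well. A floor of 3 counts corresponds to 0.140 to 0.172 CPM, for counting error only. P-values set the difference between the groups against the spread between these 6 animals' libraries, moderated across genes.

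Alternatives were DESeq2 1.42.0, limma-voom (limma 3.58.1), other scalings, filters and thresholds, the replicate number as a block, and each library left out. The scripts were tested on simulated data.

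The genes described and the pathway and marker lists were chosen with earlier results of these data known. Text names the 9 genes and Nrep, per list up to 3 other genes with the smallest adjusted p among those past the test or else the 2 with the highest mean CPM, and the 3 genes with a mean of at least 2 CPM nearest in pattern to the member past the test. A gene that the rule names is not reported here. Adora1, Mc2r, Dio2 and Fos fall outside this rule and were named after their values were seen. Levels relative to the 12 adipocyte markers used log2 CPM with no pseudocount.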

Additional observations from a re-analysis of the deposited data

How the results depend on the processing

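Of the 9 signalling genes, 1 passed the test, and this count was 0 with DESeq2 size factors, in limma-voom, with a filter of at least 1 CPM in 3 libraries and at an adjusted p of 0.01, 2 (1 higher, 1 lower) in DESeq2 and at an adjusted p of 0.10, and 0 to 5 (0 to 4 higher, 0 to 1 lower) without 1 library. Over all tested genes, DESeq2 called 10.9%, limma-voom 0.0961% and the fit without KO replicate 2 25.3%. At an adjusted p of 0.10, 1378 of 16656 genes passed. For Gnal the log2 fold change was -1.47 (adjusted p = 0.0518) with DESeq2 size factors, -1.58 (0.0640) in limma-voom, -1.52 (0.0522) with the CPM filter, and -1.68 to -1.20 without 1 library, its adjusted p ranging between 4.35e-05 and 0.214 over all alternatives. Without 1 library, the ranges were -0.10 to 0.73 for Adrb1, 0.12 to 0.66 for Adrb3, -1.0 to -0.65 for Adra2a, -0.10 to 0.35 for Npr1, 0.65 to 1.22 for Npr3, 0.22 to 0.44 for Gnas, 0.59 to 1.09 for Pde3b and 0.98 to 1.48 for Prkar2b. DESeq2 gave Prkar2b 1.21, and library totals gave Npr1 -0.014 (adjusted p = 0.962). The cause of these changes was not tested.

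Of the 125 pathway genes, 3 passed (2 higher, 1 lower), against 21 (17 and 4) in DESeq2, 0 in limma-voom, 0 at an adjusted p of 0.01, 13 (9 and 4) at 0.10, and 0 to 50 (0 to 35 higher, 0 to 15 lower) without 1 library. With no filter, a fit that also took in genes with low counts, 17 (13 and 4) passed. The lower count was 2 with library totals and 0 with DESeq2 size factors and with the CPM filter. In limma-voom the adjusted p was 0.0638 for Adcy10 and for Ptger3. Of all genes, 171 passed (144 and 27), against 1823 (1223 and 600) in DESeq2, 16 (15 and 1) in limma-voom, 1 (0 and 1) at 0.01, 1378 (920 and 458) at 0.10, and 1 to 4221 (0 to 2410 higher, 1 to 1811 lower) without 1 library. With no filter 1370 (928 and 442) passed, out of 33094 tested genes and not 16656. The count was 334 (104 and 230) without WT replicate 3, and with library totals 49 were lower.

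Whether the replicate numbers pair the libraries could not be settled with 3 libraries per group. Deviations from the group means of same-numbered libraries correlated at -0.0077, 0.196 and 0.105 across genes for replicates 1, 2 and 3. KO replicates 2 and 3 correlated best with the WT library of the same number, and KO replicate 1 with WT replicate 3 (0.139). With a replicate block, 4 of the 9 genes passed (3 higher, 1 lower), with log2 fold changes of 0.89 for Npr3, 0.80 for Pde3b, 1.15 for Prkar2b and -1.56 for Gnal, as did 19 pathway genes (17 and 2) and 1225 of all genes (790 and 435).

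Depth limits Adrb1, Adra2a and Adcy10, which rest on 9 to 119 counts per library. Among the fits without 1 library, Npr3, Gnas, Gnal, Pde3b and Prkar2b passed only without KO replicate 2.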
